A study of Mus musculus with 24 samples.

Results

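Contractile smooth muscle genes of the mouse aorta were followed across a study of interleukin-17 (IL-17) deficiency, dietary salt and experimental aortic injury. The set holds 10 genes: the actins Acta2 and Actg2, the actin-binding proteins Tagln, Cnn1 and Tpm1, the myosin heavy chain Myh11, its kinase Mylk, and the cytoskeletal proteins Smtn, Lmod1 and Synpo2. They were chosen by gene name on the array, and the brightest probe stood for each gene. All 10 were among the 23503 genes tested, through 19 of the 55681 probes on the array, and all 19 passed the filter on dim probes. Each of the 19 probes was well above background on all 24 arrays, so no member entered through 1 group alone.

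The study had 8 groups of 3 biological replicates, each on a one-colour Agilent array of aortic RNA labelled with Cy3. All mice were C57BL/6 on normal chow, either wild type (WT) or carrying a deficiency of IL-17 (knockout, KO). Within each genotype, mice drank plain water or 1% NaCl, which was started ahead of the infusion and kept up through it, and received a continuous infusion of either vehicle or BAPN with angiotensin II for 3 days. BAPN blocks lysyl oxidase, the enzyme that cross-links collagen and elastin, and angiotensin II constricts arteries and raises blood pressure. The groups are called control (vehicle, plain water), salt (vehicle, NaCl), infusion (BAPN and angiotensin II, plain water) and salt with infusion. The labels used here name neither the age of the mice, nor the segment of aorta, nor the construct behind the knockout. They name the aorta as the sample and the extraction protocol speaks of cells, so how far the wall was cleaned of surrounding tissue is not known.

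Smooth muscle cells make up most of the aortic media. In their contractile state they hold actin thin filaments and myosin thick filaments, and calcium-activated myosin light chain kinase starts contraction. Many of the genes for this apparatus carry CArG boxes, the DNA sites bound by serum response factor (SRF) with its partner myocardin, and injured or cultured smooth muscle cells are known to lower them while raising matrix and cytoskeletal genes of a modulated state.

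Signals were log2 of the processed signal minus the 75th percentile of its array, so that a value of 1 is a signal 2 times that percentile. The percentile itself lay between 269 and 459 signal units on wild-type arrays and between 383 and 769 on knockout arrays, and the share of probes well above background was 49.8% to 60.0%. The arrays came from 4 slides, and no slide held both genotypes, so genotype and slide cannot be told apart. Control and infusion arrays of the wild type shared no slide, and neither did salt and salt with infusion of the knockout. Knockout controls shared slide 1 with knockout infusion arrays 1 and 2, and wild-type salt shared slide 3 with wild-type salt with infusion arrays 1 and 2. The third infusion array of each genotype stood apart from the other infusion arrays toward the controls in several members. Values without these arrays are given beside the infusion results on plain water that they change. That choice was made after the values were seen. Leaving out the arrays nearest the controls favours larger falls, so those values and their p-values are no separate evidence. Knockout infusion array 3 lay on slide 2, and arrays 1 and 2 on slide 1. Signal well above background for Il17a or Il17f was seen on none of the arrays (0 of 24 for each), so these genes give no check of the genotype labels. The 10 members, defining genes of the smooth muscle wall, were well above background on all arrays. So were 10 of 10 fibroblast, 10 of 10 endothelial, 10 of 10 macrophage, 6 of 6 pericyte and 9 of 13 striated muscle markers, so detection alone did not set the labelled tissue apart from others.

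**Figure D1:**
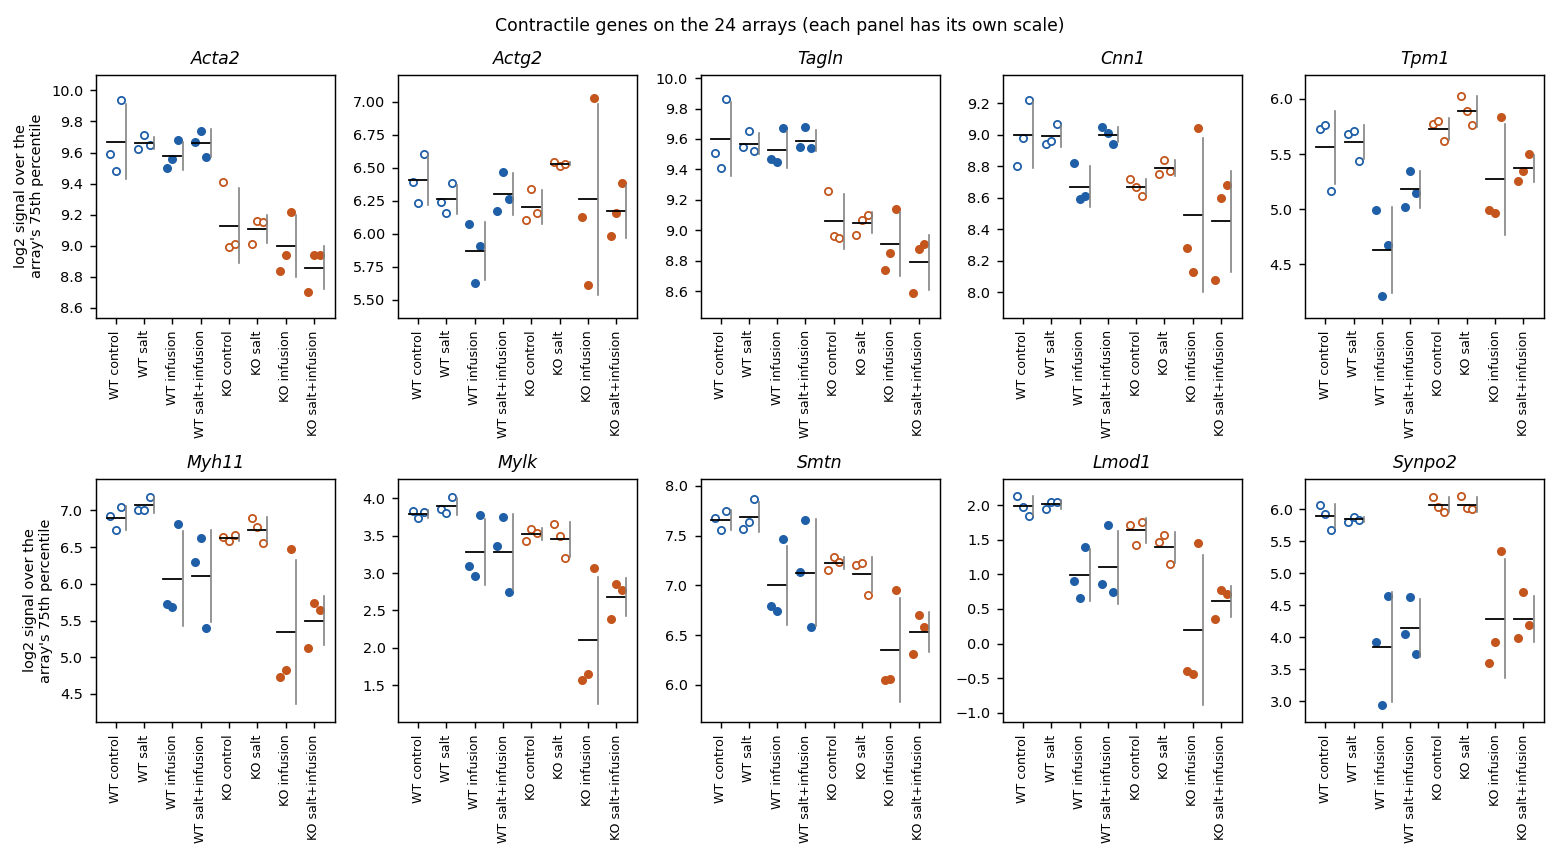
Signal of each contractile gene on every array (log2 of the signal over the array's 75th percentile), 3 arrays a group, WT blue and KO orange, filled where BAPN and angiotensin II were infused; the black line is the group mean and the grey bar ± 1 SD. The infused arrays of Synpo2 lie at 5.35 or below and all arrays without infusion at 5.68 or above, while Acta2 and Tagln separate by genotype and hardly by infusion. No slide held both genotypes, and with quantile normalisation neither gene passed in the genotype comparisons.

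The first question was what the infusion did to these genes, with infused mice set against vehicle mice of the same genotype and drinking water. Synpo2, which encodes an actin-bundling protein of dense bodies and Z-discs, fell in all 4 comparisons, by 3.24-fold to 4.13-fold. Synpo2, Lmod1 and Tpm1 fell in the wild type on plain water. In the knockout on plain water Synpo2, Mylk, Lmod1, Myh11 and Smtn fell. On salt, Synpo2 alone fell in the wild type, and Synpo2 and Myh11 fell in the knockout. No member rose, where 12.2% and 14.4% of all genes tested were called higher in the wild type and the knockout on plain water and 16.3% and 13.4% on salt, and Acta2, Tagln, Cnn1 and Actg2 passed the threshold in no infusion comparison.

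Synpo2 gave the clearest picture. Its 3 wild-type control arrays were at 6.06, 5.92 and 5.68 and the 3 infusion arrays at 3.93, 2.94 and 4.65. In the knockout the controls were at 6.19, 6.04 and 5.96 and the infusion arrays at 3.60, 3.92 and 5.35. No infused array reached the level of a vehicle array in either genotype, and the spread among infused arrays was wider than among controls. On salt the wild type went from 5.80, 5.88 and 5.83 to 4.05, 4.63 and 3.74. The knockout on salt went from 6.21, 6.01 and 6.00 to 3.99, 4.70 and 4.19. Again the arrays of both genotypes were fully apart.

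The log2 change of Synpo2 was −2.05 ± 0.39 (SE, n = 3 against 3, limma adjusted p = 0.00125) in the wild type on plain water and −1.77 ± 0.39 (adjusted p = 0.00247) in the knockout. On salt it was −1.70 ± 0.39 (adjusted p = 0.00336) in the wild type and −1.78 ± 0.39 (adjusted p = 0.00312) in the knockout. Over all genes, 1303 (5.54%) were called lower in all 4 comparisons, and between 0.434% and 1.43% of genes had a lower log2 change than Synpo2. In order of the group means, Synpo2 was at 6.07 ± 0.12 (SD, n = 3) in both the control and the salt group of the knockout, 5.89 ± 0.19 in wild-type controls, 5.84 ± 0.04 in wild-type salt, 4.29 ± 0.93 in knockout infusion, 4.29 ± 0.36 in knockout salt with infusion, 4.14 ± 0.45 in wild-type salt with infusion and 3.84 ± 0.86 in wild-type infusion. Only the step between wild-type salt and knockout infusion exceeded the spread within groups. The call in the wild type on plain water, where the groups shared no slide, was lost with slide as a fixed block (−1.45, adjusted p = 0.197) or a random block (−1.71, adjusted p = 0.0655). Within slide 1, which lacks the third knockout infusion array, the knockout on plain water gave −2.30 (adjusted p = 7.65e-05). Within slide 3 the wild type on salt gave −1.50 (adjusted p = 0.0022). The changes on plain water were −2.45 (adjusted p = 4.15e-06) in the wild type and −2.30 (adjusted p = 6.22e-06) in the knockout without the third infusion arrays of both genotypes. All 4 calls were kept with each array left out in turn. The knockout call on plain water was lost in a fit of those 6 arrays alone (−1.77, adjusted p = 0.0567).

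The thick filament and its kinase came next. Myh11, the smooth muscle myosin heavy chain, was at 6.64, 6.59 and 6.66 on knockout control arrays and at 4.73, 4.83 and 6.47 on knockout infusion arrays. The first and second infusion arrays lay far below the controls and the third just under them. Its log2 change was −1.29 ± 0.38 (SE, n = 3 against 3, limma adjusted p = 0.0159), and −1.85 (adjusted p = 2.56e-05) without the third infusion arrays of both genotypes. The call was lost without infusion array 1 (−0.98, adjusted p = 0.106) or infusion array 2 (−1.03, adjusted p = 0.078). On salt the knockout went from 6.90, 6.77 and 6.56 to 5.12, 5.74 and 5.65, arrays fully apart, with a change of −1.24 ± 0.38 (adjusted p = 0.0236). That call was lost when 4 of the 6 arrays were left out in turn: salt array 1 (adjusted p = 0.0759), salt array 2 (0.0585), and salt with infusion array 1 (0.0998) or array 3 (0.0501). In the wild type Myh11 did not pass, with controls at 6.93, 6.74 and 7.05 and infusion arrays at 5.72, 5.69 and 6.82 (change −0.83, adjusted p = 0.117). Without the third infusion arrays, left out because they lay toward the controls, it passed there (−1.20, adjusted p = 0.00122).

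Mylk, the myosin light chain kinase that turns calcium into contraction, was at 3.43, 3.59 and 3.53 in knockout controls and at 1.57, 1.65 and 3.07 on knockout infusion arrays. All 3 infusion arrays lay below the controls, the third by the least. Its change was −1.42 ± 0.31 (SE, n = 3 against 3, limma adjusted p = 0.0027), a 2.67-fold fall. Within slide 1, which lacks the third knockout infusion array, its change was −1.91 (adjusted p = 0.000176). In the wild type on plain water it was −0.51 ± 0.31 (adjusted p = 0.247). It passed there without the third infusion arrays of both genotypes (−0.76, adjusted p = 0.00909), whereas with slide as a fixed block it was 0.30 (adjusted p = 0.683). The changes were, on salt, −0.61 in the wild type and −0.77 in the knockout, neither of which passed. The difference between the genotypes on plain water was −0.91 ± 0.44 (adjusted p = 0.772).

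Lmod1 encodes leiomodin, which nucleates actin filaments in smooth muscle. Wild-type controls were at 2.13, 1.98 and 1.85 and wild-type infusion arrays at 0.90, 0.66 and 1.40, with no overlap. Knockout controls were at 1.72, 1.43 and 1.76 and knockout infusion arrays at −0.40, −0.44 and 1.45, and here the third infusion array lay within the range of the controls. The change was −1.0 ± 0.36 (SE, n = 3 against 3, limma adjusted p = 0.0478) in the wild type and −1.43 ± 0.36 (adjusted p = 0.00601) in the knockout. The wild-type call was close to the threshold and was lost on leaving out any of 5 of its 6 arrays, with adjusted p from 0.0702 to 0.19. The groups shared no slide, and with slide as a fixed block the change was −0.46 (adjusted p = 0.554). It became −1.20 (adjusted p = 0.000454) without the third infusion arrays of both genotypes, and the knockout value became −2.06 (adjusted p = 2.89e-06).

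Tpm1, an alpha-tropomyosin that lies along the actin filament, fell in the wild type on plain water. Its controls were at 5.73, 5.76 and 5.17 and its infusion arrays at 4.99, 4.21 and 4.68. The third control array was the lowest of the controls and still above every infusion array. The change was −0.93 ± 0.22 (SE, n = 3 against 3, limma adjusted p = 0.00537), and −0.96 (adjusted p = 0.00128) without the third infusion arrays of both genotypes. With slide as a fixed block it was −0.89 and did not pass (adjusted p = 0.19). In the knockout the infusion arrays were at 4.99, 4.97 and 5.84 against 5.77, 5.80 and 5.62 in controls, and the third infusion array was above all 3 controls. The knockout change was −0.46 (adjusted p = 0.12), and −0.75 (adjusted p = 0.00615) without the third infusion arrays of both genotypes.

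Smtn, which encodes smoothelin, a cytoskeletal protein of fully differentiated smooth muscle, was at 7.16, 7.29 and 7.24 in knockout controls and at 6.05, 6.06 and 6.95 on knockout infusion arrays. These did not overlap, and the change was −0.88 ± 0.25 (SE, n = 3 against 3, limma adjusted p = 0.0141). Without infusion array 1 or array 2 the change was −0.73 and did not pass (adjusted p = 0.0833 and 0.0647). Its wild-type change was −0.66 (adjusted p = 0.0625), and −0.89 (adjusted p = 0.00321) without the third infusion arrays of both genotypes.

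Acta2 and Tagln, the smooth muscle alpha-actin and the SM22 protein that binds it, are the most widely used markers of the contractile state. Acta2 was at 9.59, 9.48 and 9.94 in wild-type controls and at 9.5, 9.56 and 9.68 after infusion, so that the groups overlapped. In the knockout it was at 9.41, 8.99 and 9.01 in controls and at 8.84, 8.94 and 9.22 after infusion, also overlapping. The infusion changes of Acta2 ran from −0.25 to 0.00 and those of Tagln from −0.25 to 0.02 over the 4 comparisons, with standard errors of 0.14. The 95% interval of Acta2 in the wild type on plain water ran from −0.38 to 0.20, and that of Tagln from −0.35 to 0.22, so falls of the size seen for Synpo2 lay outside them. Cnn1, which encodes calponin, a regulator of actomyosin, ran from −0.33 to 0.01. Actg2, the gamma-actin best known from visceral muscle, ran from −0.54 to 0.06. The third knockout infusion array had the highest Actg2 value of all 24 arrays, 7.03, beside 6.13 and 5.61 on the other 2 infusion arrays. Without the third infusion arrays of both genotypes Actg2 fell in the wild type (−0.56, adjusted p = 0.0155) and Cnn1 in the knockout (−0.46, adjusted p = 0.0204).

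Acta2, Tagln and Cnn1 were among the brightest spots on the array. No spot outside the controls was flagged as saturated on any array. The highest signal of Acta2, 5.52 on the log10 scale, was below 5.77, the lowest upper end of the range in which the spike-in controls rose linearly. A set of the 24 genes at least as bright as Cnn1 on average was drawn up after their values were seen. It holds Cnn1, Acta2 and Tagln themselves. Of the 24, 1, 0, 0 and 0 were called for infusion in the wild type on plain water, the knockout on plain water, the wild type on salt and the knockout on salt. Of all genes 25.9%, 30.6%, 32.9% and 25.2% were. What part brightness has in the small changes of these 3 genes was not tested.

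Counted over the set, 3 of 10 members fell in the wild type on plain water, where 13.7% of all genes tested were called lower, and the median log2 change of the members was −0.60 beside −0.02 for all genes. In the knockout on plain water 5 of 10 fell (16.2% of all genes), with a median of −0.67 beside −0.04. On salt 1 of 10 fell in the wild type (16.6% of all genes), with a median of −0.50 beside −0.06, and 2 of 10 in the knockout (11.8% of all genes), with a median of −0.55 beside −0.02. The infused arrays lay wholly below the vehicle arrays for 5, 4, 5 and 10 members in these comparisons, in the same order, where 19.0%, 19.9%, 29.2% and 25.3% of all genes did. Every one of the 10 members was thus lower on all 3 arrays of salt with infusion than on all 3 salt arrays of the knockout, although only 2 passed the threshold and those groups shared no slide. For 6 of 10 members at least 1 infusion comparison was called lower, as for 6278 genes (26.7%) overall.

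Without the third infusion arrays of both genotypes, left out after the values were seen, 7 of 10 members fell in each genotype on plain water. Of all genes 40.1% and 45.0% were then called in either direction in the wild type and the knockout, more than the 25.9% and 30.6% of the fit of all arrays. Within slide 1, 7 of 10 fell in the knockout on plain water, but slide 1 also lacks the third knockout infusion array. That count is therefore no separate evidence. Within slide 3, 2 of 10 fell in the wild type on salt (Synpo2, and Myh11 by 0.61 on the log2 scale, adjusted p = 0.0204). Of all genes 43.4% and 28.8% were called there in either direction, which is no like measure for members called lower. In the fit of all arrays 32.9% were called in either direction in the wild type on salt, and 16.6% lower. The 2 of 10 on slide 3 is therefore not read as a result about the members. With slide as a fixed block 0 of 10 passed in the wild type on plain water and 9 of 10 fell in the knockout on salt. Of all genes 1.12% and 36.8% were called there in either direction. Those values rest on single arrays that tie the slides together, knockout infusion array 3 and wild-type salt with infusion array 3. In a fit of the compared arrays alone 0 of 10 passed in the knockout on plain water and 6 of 10 fell in the knockout on salt. Of all genes 10.3% and 32% were called there in either direction.

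**Figure D2:**
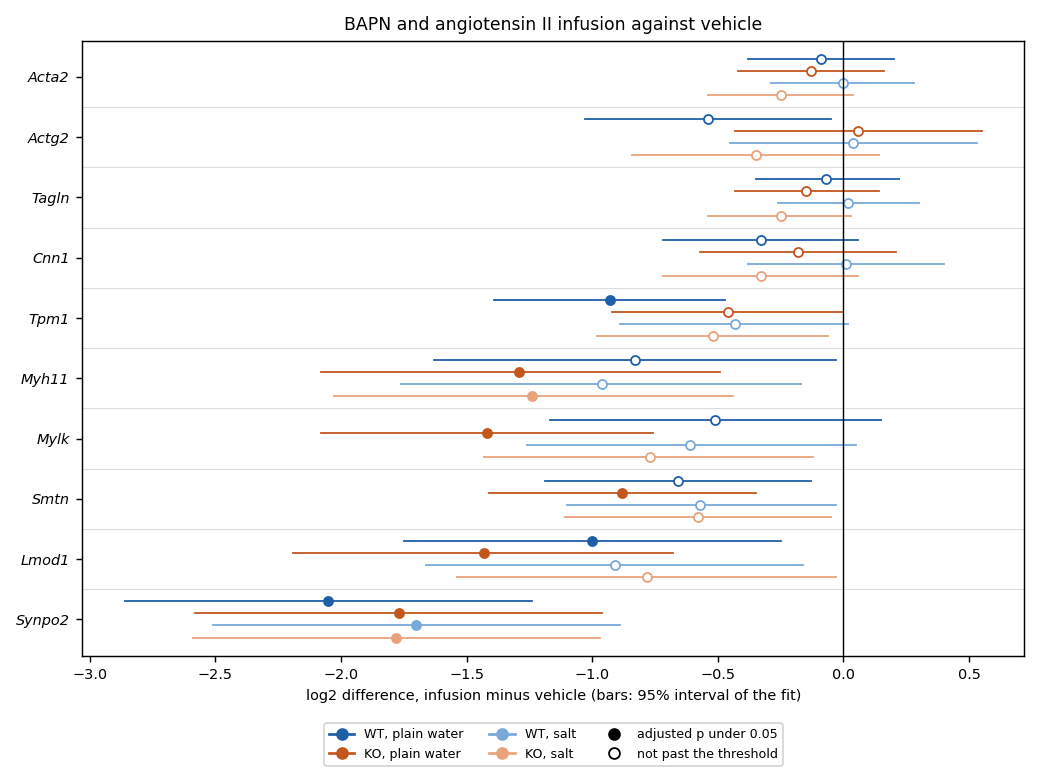
Infusion minus vehicle on the log2 scale for each contractile gene in the 4 comparisons (points: estimate from the fit of all 24 arrays; bars: its 95% interval; filled: adjusted p under 0.05). Synpo2 is filled in all 4 comparisons, from −2.05 to −1.70, and Acta2, Actg2, Tagln and Cnn1 in none.

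Members varied together across arrays. With each genotype centred on its own mean, the correlation of a member with the mean of the other 9 over the 24 arrays was 0.96 for Myh11, 0.96 for Lmod1, 0.95 for Smtn, 0.93 for Mylk and 0.92 for Synpo2. It was 0.82 for Tpm1, 0.73 for Cnn1, 0.64 for Actg2, 0.62 for Tagln and 0.60 for Acta2. The 45 pairs ran from 0.32 to 0.97 with a median of 0.67. These values are a description: the arrays share slides and scaling, and the groups lie far apart. Of 13220 other genes compared with the mean of the members in this way, the most alike were Map1b (r = 0.982), Rasl12 (0.979), Slc8a2 (0.976), Stimate (0.976), Unc45a (0.975), Cap2 (0.975), Pgm5 (0.974) and Lims2 (0.974). Their log2 changes for infusion in the wild type on plain water were −1.06, −1.16, −1.10, −1.64, −0.83, −1.17, −0.91 and −1.0. Genes picked for varying with the members share their pattern by that choice, so these falls are no separate evidence. Cap2 and Pgm5 are also in a list given below.

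In 4 genes several probes could be compared, each tested in the 4 infusion comparisons and adjusted over all probes. Over the 19 member probes, 16 of 76 such tests were called lower and 1 higher. The share of all probes called was not counted, so these counts are not read as a result about the members. The descriptions of the brightest Tpm1 probe and a dim one name different transcript variants. So do those of the brightest Smtn probe and a dim one. These names are labels only: both Smtn probes are listed for the same RefSeq transcripts, and these Tpm1 probes share a listed transcript. Both Tpm1 probes and the dim Smtn probe are shown because probes of the same locus gave different answers.
Tpm1, annotated to variant 2: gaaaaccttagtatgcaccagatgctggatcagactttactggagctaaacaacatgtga
Tpm1, annotated to variant 5: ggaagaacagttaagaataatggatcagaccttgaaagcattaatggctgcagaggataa
Smtn, annotated to variant 2: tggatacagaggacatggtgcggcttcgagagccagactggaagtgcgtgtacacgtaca
Each is a 60-base probe written 5′ to 3′, as the array files give it. On mm9, the build of the array design, they lie on the minus strand at chr9:66871166-66871225, chr9:66880274-66880333 and chr11:3420834-3420893.

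The Tpm1 variant 2 probe is the one that fell in the wild type on plain water (−0.93). The Tpm1 variant 5 probe changed by 0.27 there (adjusted p = 0.37), and was higher with infusion in the wild type on salt (0.63, adjusted p = 0.0303), the 1 higher call among the member probes. The other 4 Tpm1 probes ran from −0.43 to −0.08 in the wild type on plain water, with none called. A Tpm1 probe without a variant number fell in the knockout on salt (−1.0, adjusted p = 0.0307). The fall of Tpm1 is therefore a statement about its brightest probe, and which variants each probe reads was not tested.

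Both Smtn probes lie on 1 gene and their changes had opposite signs. The brightest, annotated to variant 1, changed by −0.66, −0.88, −0.57 and −0.58 in the wild type and the knockout on plain water and the wild type and the knockout on salt. The variant 2 probe changed by 0.29, 0.38, 0.27 and 0.26 in the same order, with none called. At Synpo2 the 3 probes moved the same way: the second changed by −2.00, −2.11, −1.85 and −2.28, all called (adjusted p = 0.00601, 0.00325, 0.0076 and 0.00257), and the third by −1.26, −0.93, −0.72 and −1.51, of which the last was called (adjusted p = 0.0368). The dim second Mylk probe changed by −0.30, −0.36, −0.51 and −0.53, with none called. With the mean of a gene's probes in place of the brightest, Tpm1 (−0.25, adjusted p = 0.267), Smtn (−0.25, adjusted p = 0.439) and Mylk (−0.89, adjusted p = 0.0654) lost their calls, while Synpo2 kept all 4.

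**Figure D3:**
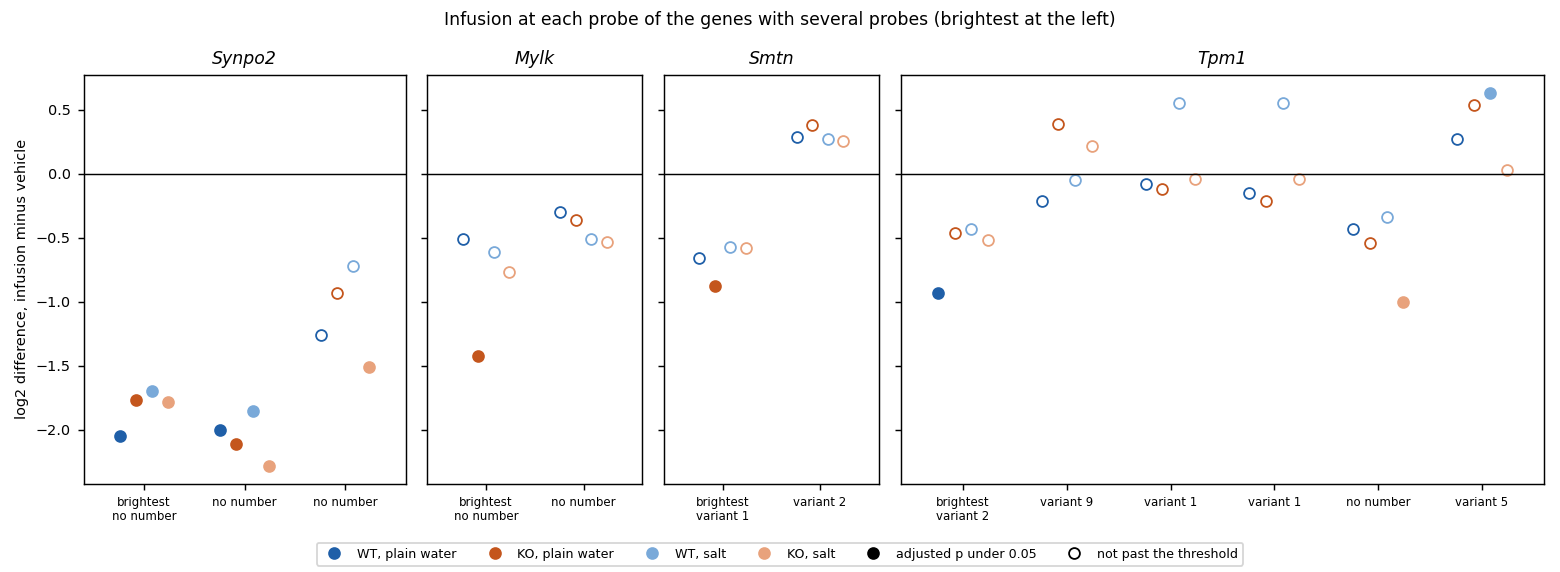
Infusion minus vehicle (log2) at every probe of the 4 members with several probes, with probes ordered from the brightest at the left (filled: adjusted p under 0.05 over all probes; no error is drawn). All 3 Synpo2 probes lie below 0 in all 4 comparisons, whereas the Smtn variant 2 probe and the Tpm1 variant 5 probe lie above 0 in all 4.

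Around the members stand the genes that regulate and work with them, given from lists by role. Their counts stand beside 13.7%, 16.2%, 16.6% and 11.8% of all genes called lower, and 12.2%, 14.4%, 16.3% and 13.4% called higher, in the wild type and the knockout on plain water and the wild type and the knockout on salt. Of 28 further genes of the contractile apparatus and its anchors, 12 fell in the wild type (median −0.47) and 8 in the knockout (−0.43) on plain water. On salt 5 fell in the wild type (−0.33), near the share of all genes, and 11 in the knockout (−0.41). In each comparison 0 rose. Cap2, an actin-filament regulator, fell in all 4, by 1.17, 1.16, 0.96 and 1.13 on the log2 scale. Pgm5, a protein of adherens junctions and dense plaques, fell by 0.91, 1.05, 0.63 and 0.83. Itga8, the integrin subunit alpha 8 of vascular smooth muscle, fell by 0.96 in the wild type on plain water (limma adjusted p = 0.00688) and by 0.97 in the knockout (adjusted p = 0.00524).

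Of 24 genes that act upstream of the contractile genes as transcription factors, cofactors and Notch components, 5 fell and 1 rose in the wild type on plain water (median −0.23). In the knockout 9 fell and 1 rose (−0.38). On salt 5 fell and 1 rose in the wild type (−0.15) and 10 fell and 1 rose in the knockout (−0.43). The 5 of 24 in the wild type is not far from the share of all genes called lower, so the genes named next are given as single genes. Srf itself fell in the wild type (−1.19 ± 0.26, SE, n = 3 against 3, limma adjusted p = 0.00352) and in the knockout (−0.91, adjusted p = 0.0138). Mef2c, a factor related to SRF, fell by 0.74, 1.02, 0.97 and 0.94 on the log2 scale in the wild type and the knockout on plain water and the wild type and the knockout on salt. Rbpj, the DNA-binding partner of Notch receptors, fell by 0.57, 0.58, 0.49 and 0.63. The 1 gene that rose in each was Fhl2, a LIM-domain cofactor of SRF, by 1.31, 0.94, 1.19 and 0.70 (adjusted p = 5.78e-05, 0.000275, 3.73e-05 and 0.00245).

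Since the members are known as SRF targets, their promoters were searched for the CArG box, CC followed by 6 bases of A or T and then GG. The box reads alike on both strands. RefSeq promoter windows on GRCm38.p6, 250 bases before to 50 after the listed start, were given for 7 of the 10 members (Acta2, Cnn1, Lmod1, Mylk, Smtn, Synpo2 and Tpm1). The exact box was in 0 of the 7, and in 1.63% of all 32851 windows. With 1 G or C allowed among the 6, it was in 1 of the 7, Acta2, and in 9.98% of all windows. The 250 bases before the start are shown for Acta2, the member with a match, and for Synpo2, the member that fell most, with matches in capitals.
Acta2: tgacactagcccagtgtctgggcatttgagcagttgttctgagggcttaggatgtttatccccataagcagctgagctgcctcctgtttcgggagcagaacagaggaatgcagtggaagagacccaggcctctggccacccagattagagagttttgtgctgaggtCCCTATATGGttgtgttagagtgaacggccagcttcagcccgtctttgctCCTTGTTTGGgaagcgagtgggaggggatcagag
Synpo2: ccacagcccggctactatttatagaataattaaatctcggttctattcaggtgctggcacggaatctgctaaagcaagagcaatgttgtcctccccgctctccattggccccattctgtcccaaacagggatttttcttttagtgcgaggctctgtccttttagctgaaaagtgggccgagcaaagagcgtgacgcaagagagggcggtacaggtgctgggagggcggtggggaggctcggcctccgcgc
Both are on the minus strand and are written 5′ to 3′ toward the gene, Acta2 at chr19:34255374-34255623 and Synpo2 at chr3:123236150-123236399 of GRCm38.p6. The Acta2 matches begin 84 and 34 bases before the listed start. A match is a string of letters and not a measured site, and the lack of one in a window says only that these letters are not in it.

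Of 24 genes that carry the contraction signal, from receptors to calcium channels and phosphatases, 13 fell and 1 rose in the wild type on plain water (median −0.61). In the knockout 8 fell and 1 rose (−0.51), on salt 9 fell and 2 rose in the wild type (−0.53), and 11 fell and 1 rose in the knockout (−0.39). Atp2a2, the calcium pump that refills the sarcoplasmic reticulum, fell by 1.36, 1.40, 1.25 and 1.05 on the log2 scale in the wild type and the knockout on plain water and the wild type and the knockout on salt. Itpr1, the receptor through which that store releases calcium, fell by 1.28, 1.35, 1.20 and 1.09.

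Among genes of the modulated state more rose than fell, and 6 to 9 of 20 did not pass. Of 20 such genes 11 rose and 1 fell in the wild type on plain water (median 0.78), 12 rose and 1 fell in the knockout (0.73), 11 rose and 0 fell in the wild type on salt (0.77), and 12 rose and 2 fell in the knockout on salt (0.67). In the wild type on plain water Spp1, which encodes osteopontin, rose by 6.52 ± 0.90 (SE, n = 3 against 3, limma adjusted p = 0.000138). There Col8a1, a short-chain collagen of injured vessels, rose by 3.86 (adjusted p = 0.000103), and Fn1, fibronectin, by 0.71 (adjusted p = 0.000249).

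Markers of other cells moved beside the members. Of 10 macrophage markers, all well above background on all 24 arrays, 9, 7, 7 and 7 rose and 0 fell in the wild type and the knockout on plain water and the wild type and the knockout on salt. Their summed signal, as a multiple of the 75th percentile, was 164 to 212 in wild-type controls and 224 to 259 after infusion, and 124 to 137 in knockout controls and 157 to 215 after infusion. The lowest knockout value after infusion, 157, was on the third array, the one nearest the controls in the members, beside 211 and 215 on the other 2. Of 10 fibroblast markers 2, 1, 3 and 0 rose and 4, 5, 5 and 7 fell in the same order, and of 10 endothelial markers 3, 2, 4 and 1 rose and 0 fell. Fibroblast sums were 870 to 988 in wild-type controls and 906 to 980 after infusion, and 1080 to 1210 and 969 to 1120 in the knockout. Endothelial sums were 103 to 111 and 111 to 135 in the wild type, and 112 to 127 and 78.9 to 152 in the knockout. Of 6 pericyte markers 1, 0, 1 and 1 rose and 2, 1, 3 and 1 fell. Markers of striated muscle, which share thin- and thick-filament paralogues with the members, fell in 0, 3, 0 and 1 of 13 and rose in 0. The third knockout infusion array had the highest striated sum of its group, 96.5 beside 42.1 and 44.6, where knockout controls had 64.5 to 80.6. Of adipocyte markers (8 of 10 measured) 0, 2, 0 and 0 fell, of lymphocyte markers (9 of 10 measured, 3 well above background on all arrays) 0, 2, 2 and 0 fell, and of Schwann cell markers (4 of 6 measured) 1 fell in each. Bulk RNA labelled as aorta was measured, so fewer smooth muscle cells and less RNA of these genes per cell cannot be told apart. The part of other cells in the changes of the members was not tested.

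**Figure D4:**
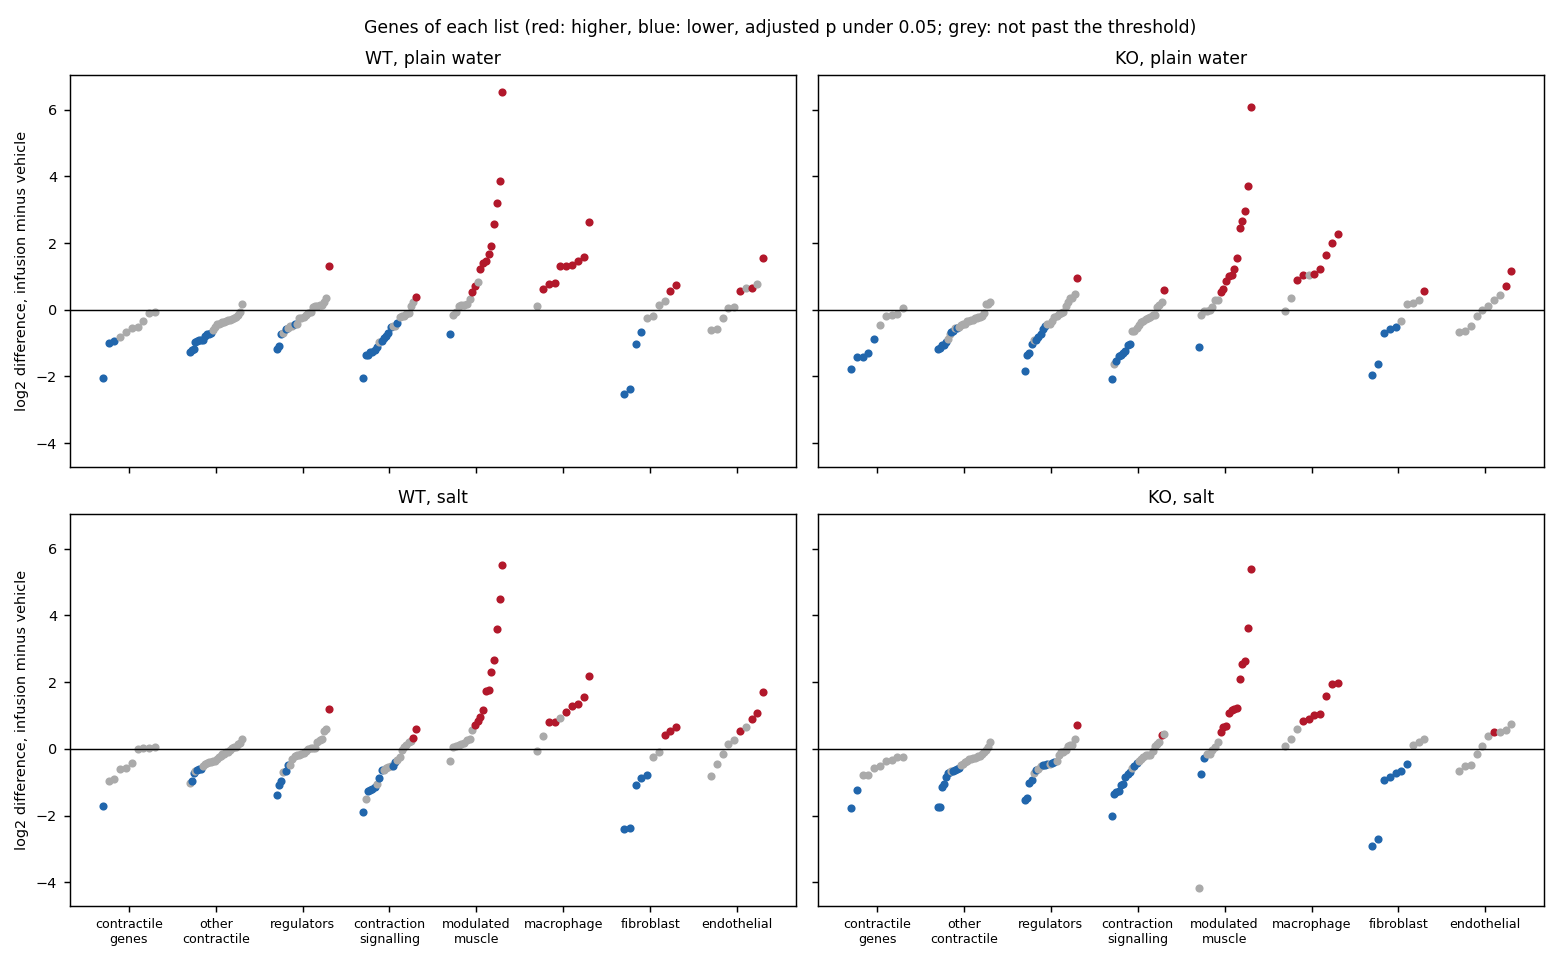
Infusion minus vehicle (log2) for every measured gene of 8 lists in the 4 comparisons, each point 1 gene sorted within its list (red or blue: adjusted p under 0.05, higher or lower; grey: not past the threshold). In the wild type on plain water the contractile genes have a median of −0.60, and the modulated-state genes of 0.78, with Spp1 highest at 6.52.

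The second question was whether salt moved these genes, alone or on top of the infusion. None of the 10 members passed for salt alone, in the wild type or in the knockout, or for salt during infusion in either genotype, and limma called 0 of 23503 genes (0%) in each of the 4 comparisons. At an unadjusted p under 0.05 the whole array had 495, 713, 1355 and 1064 genes in these comparisons. The members' median changes were 0.01 and 0.00 for salt alone and 0.12 and 0.05 during infusion, in the wild type and the knockout. The 95% intervals for Synpo2 were −0.86 to 0.76 for salt alone in the wild type and −0.51 to 1.11 during infusion, so changes within these bounds could have been missed. For Acta2 they were −0.30 to 0.28 and −0.21 to 0.37. Among wild-type mice on infusion, Tpm1 was at 5.02, 5.35 and 5.15 with salt and at 4.99, 4.21 and 4.68 without, arrays fully apart, with a difference of 0.55 ± 0.22 (SE, n = 3 against 3, limma adjusted p = 0.844). In all, 3 members were higher on all arrays with salt there, where 2.61% of genes were, and none of the 3 passed. Without the third infusion arrays of both genotypes Lmod1 (1.03, adjusted p = 0.036) and Mylk (1.07, adjusted p = 0.0279) were higher with salt during infusion in the knockout. Of all genes 1.70% were called there in either direction. The arrays compared there are all on slide 1 without salt and all on slide 2 with it. Within slide 2, which holds the third knockout infusion array, the differences turned to −0.84 for Lmod1 (adjusted p = 0.222) and −0.40 for Mylk (adjusted p = 0.454), and all 10 members were below 0. The infusion effect did not differ beyond the threshold between salt and plain water for any member, in either genotype, and limma called 0 genes (0%) in each.

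The third question was whether the knockout differed from the wild type. Acta2 and Tagln were lower in the knockout. Wild-type control arrays had Acta2 at 9.59, 9.48 and 9.94 and knockout control arrays at 9.41, 8.99 and 9.01, and the 2 groups did not overlap. Under salt with infusion the wild type was at 9.67, 9.74 and 9.57 and the knockout at 8.70, 8.94 and 8.94, again without overlap. The difference was −0.54 ± 0.14 (SE, n = 3 against 3, limma adjusted p = 0.00503) in controls and −0.80 ± 0.14 (adjusted p = 0.000332) under salt with infusion. Tagln was at 9.51, 9.41 and 9.86 in wild-type controls and at 9.26, 8.96 and 8.95 in knockout controls. Its differences were −0.54 ± 0.14 (adjusted p = 0.00452) and −0.80 ± 0.14 (adjusted p = 0.000309). Cnn1 was lower in the knockout under salt with infusion by 0.55, that is at −0.55 ± 0.19 (adjusted p = 0.0349).

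These genotype differences depended on the scaling. With quantile normalisation Acta2 differed by −0.05 in controls and −0.06 under salt with infusion, Tagln by −0.05 and −0.07, and Cnn1 turned to 0.01 and 0.05, none of them past the threshold. The same held for the authors' processed values, which have the same distribution on every array. With slide as a random block Acta2 and Tagln kept the call under salt with infusion (−0.88, adjusted p = 0.0136, and −0.89, adjusted p = 0.0121) and lost it in controls. Counted over the set, 2 of 10 members were lower in controls, where 22.8% of all genes were called lower, and 3 of 10 under salt with infusion, where 17.9% were. The arrays of 7 and 3 members lay wholly lower in the knockout, where 31.4% and 25.5% of genes did.

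The Smtn variant 2 probe printed above was lower in the knockout in controls (−0.97, adjusted p = 0.00118) and under salt with infusion (−0.91, adjusted p = 0.00304), while the brightest Smtn probe was at −0.43 (adjusted p = 0.196) and −0.60 (adjusted p = 0.0888). The spike-in slopes were 0.884 to 0.908 on wild-type and 0.932 to 0.981 on knockout arrays. Their part in the genotype differences was not tested.

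The infusion effect itself did not differ between genotypes beyond the threshold for any of the 10 members, on plain water (0% of all genes called) or on salt (0.0723%). The largest difference in size was that of Mylk on plain water, given above with its standard error. The interval for Synpo2 on plain water ran from −0.87 to 1.42, so a sizeable difference could not be seen with 3 arrays a group. With slide as a fixed block Mylk passed on plain water (−2.21, adjusted p = 0.0355) and Myh11 (−2.32), Cnn1 (−1.21), Mylk (−1.90), Lmod1 (−1.92) and Actg2 (−1.58) on salt, values that rest on the single arrays tying the slides.

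**Figure D5:**
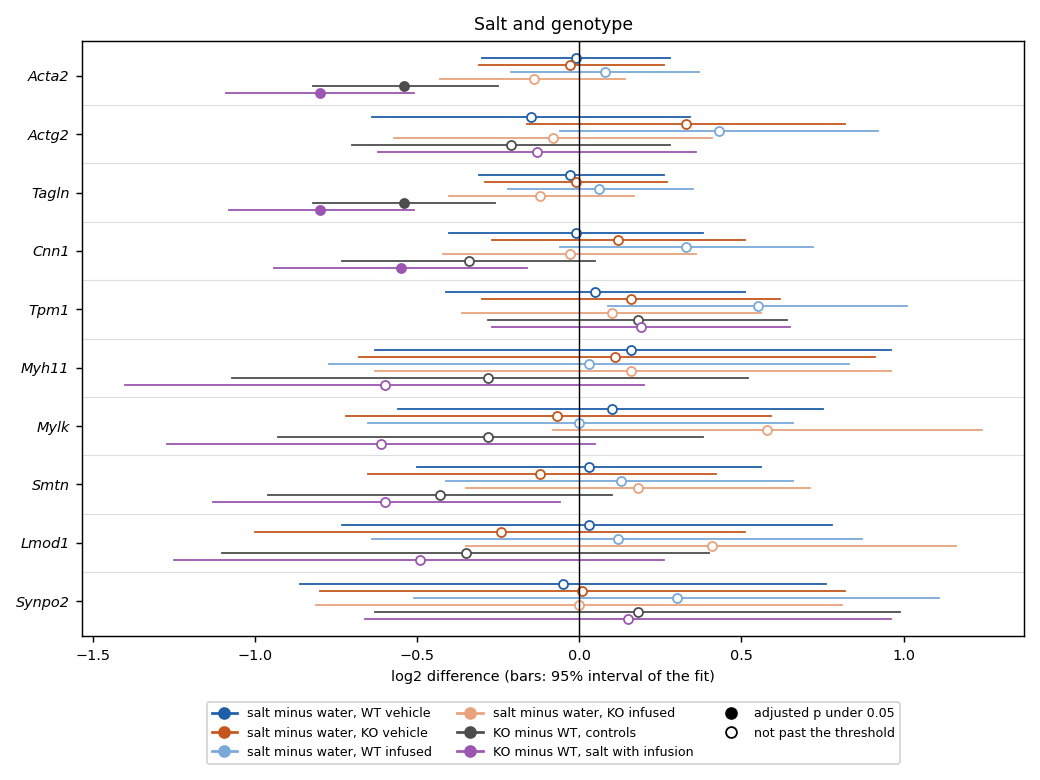
Differences by salt (with minus without, in each genotype and infusion) and by genotype (KO minus WT) on the log2 scale for each contractile gene (points: estimate from the fit of all 24 arrays; bars: its 95% interval; filled: adjusted p under 0.05). Filled points are those of Acta2 and Tagln in both genotype comparisons and of Cnn1 under salt with infusion, at −0.54 to −0.80. No slide held both genotypes, and none of these passed with quantile normalisation.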

How the data were processed

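Scanner output of 24 one-colour arrays was used. Its processed signal is deposited as intensity on a linear scale, background-subtracted within the array, per the file headers (Feature Extraction 10.7.1.1; the submitters' processing notes name 9.5.1.1). Spots flagged as outliers were left out, spots of a probe averaged, and log2 signal taken minus each array's 75th percentile. A probe was kept if well above background on all 3 arrays of a group and present on 2 of every group. Names came from accessions (27235 probes) or the files. One limma 3.58.1 model (R 4.3.3, data.table version 1.17.8) of all 24 arrays together, with 8 group means, gave 14 comparisons. P-values were adjusted by Benjamini-Hochberg over 23503 genes, with a threshold of 0.05. It was tested on simulated data. The authors' processed intensity values (linear, the same sorted values and a median of 31.0 on each array; their other steps are not given in the sources used here) and 11 further alternatives were tried, and each array was left out in turn.

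The members and lists were chosen with earlier results of these data known. All members were named, with up to 4 genes of smallest p per list and comparison and the 8 genes most alike. Plots used matplotlib 3.10.9 (Python 3.11.15). One result on a single gene is not reported here. The number of arrays limits the precision.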

Additional observations from a re-analysis of the deposited data

Results flagged for a closer look

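Actg2 moved oppositely with salt alone in the 2 genotypes. With salt it changed by −0.15 on the log2 scale in the wild type, where every salt array lay below the mean of the controls, and by 0.33 in the knockout, where every salt array lay above it. Neither change passed the threshold (limma adjusted p = 1 for each, 3 arrays against 3), and the difference between the genotypes was not tested.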

How the results depend on the processing

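The larger moves in counts of members called, all of them lower unless said, were as follows. The main counts were 3 (infusion, wild type on plain water), 5 (knockout on plain water), 1 (wild type on salt), 2 (knockout on salt), 2 (genotype, controls) and 3 (genotype, salt with infusion). In that order 25.9%, 30.6%, 32.9%, 25.2%, 37.1% and 28.5% of all genes were called in either direction. Quantile normalisation and the authors' processed values each gave 4, 6, 5 and 3 for infusion in that order. They gave 0 for both genotype comparisons, where Cnn1 under salt with infusion turned to 0.05 and 0.05. Quantile normalisation called 28.8%, 29.9%, 33.1%, 25.2%, 36.1% and 25.4% of all genes in either direction, in the order above. The authors' values called 28.8%, 29.9%, 33%, 25.2%, 36% and 25.3%. Normexp gave 2 and a prior variance with a trend 3 in the wild type on salt. The mean of a gene's probes gave 2, 3, 1 and 2 for infusion in the order above, and 3 and 4 for genotype. Shares of all genes called in either direction were then 25%, 30.1%, 32.9%, 25%, 36.3% and 27.3%. Slide as a fixed block gave 0, 7, 2 and 9 for infusion in the order above. It gave 1 and 5 for the genotype difference of infusion on plain water and on salt, where Lmod1 turned to −1.92. Of all genes 1.12%, 42.9%, 25.6%, 36.8%, 0.196% and 8.43% were called there in either direction. The fixed block could give no genotype comparison, since no slide held both genotypes. Slide as a random block (correlation 0.485) gave 0, 6, 2 and 8 for infusion, and 0 and 2 for genotype. In that order 3.28%, 38.4%, 30.2%, 27.6%, 8.38% and 9.98% of all genes were called in either direction. Slide 1 alone, which lacks the third knockout infusion array, gave 7 in the knockout on plain water, and slide 3 alone gave 2 in the wild type on salt. Shares of all genes called in either direction were 43.4% and 28.8%. Fits of only the compared groups gave 1, 0, 2 and 6 for infusion in the order above. They called 5.25%, 10.3%, 33.1% and 32% of all genes in either direction. Without the third infusion arrays of both genotypes, chosen after seeing the data, 7 fell in the wild type and 7 in the knockout on plain water. In that setting 2 were higher with salt during infusion in the knockout. Of all genes 40.1%, 45.0% and 1.70% were called there in either direction. The comparison by salt sets slide 1 against slide 2, and within slide 2 Lmod1 was at −0.84 and Mylk at −0.40.

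With single arrays left out the counts ran from 2 to 5 for infusion in the wild type on plain water (5 without infusion replicate 3), 3 to 7 in the knockout on plain water (3 without infusion replicate 1 or 2, 7 without replicate 3), 1 to 4 in the wild type on salt (4 without salt with infusion replicate 2) and 1 to 2 in the knockout on salt. They ran from 2 to 2 and 2 to 3 for the genotype comparisons and were 0 in the 8 others. Shares of all genes are not given for left-out arrays, so these counts are not read as a result about the members. The replicate number as a block gave 2, 5, 1 and 2 for infusion, 2 and 3 for genotype and 0 elsewhere. For infusion and genotype it called 24.1%, 28.9%, 31.5%, 23.6%, 35.8% and 27.2% of all genes in either direction. Same-numbered arrays did not deviate together (r of deviations −0.45 to 0.26, every r over 0.1 in 0 of 10 comparisons), and titles and source names number the wild-type salt arrays differently, so no pairing was assumed. Of 2590 values of single members under the alternatives, 2470 kept their side of the threshold, 69 newly passed and 48 no longer passed. The other 3 changed sign where the main or the alternative value was called. Changes of sign without a call on either side are within the 2470 and were not counted apart.

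Precision is limited by 3 arrays a group. Member spots were well above background and not saturated on all arrays. Quantile normalisation moved both genotype comparisons and infusion in the wild type on salt, and the cause was not tested. Genotype and slide cannot be told apart.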
